A study of Mus musculus with 8 samples.

Results

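The autophagy genes described here are 34 mouse genes of the machinery that builds autophagosomes, and every one has at least 1 probe on the array. They were taken by gene name from the probe annotation of the scanner files, and each gene is represented by its brightest probe over the 8 arrays. Of the 34, 33 were above background and were tested among 19284 genes. Atg4a was well above background on 0 of 8 arrays and was not tested. Cells were bone marrow-derived macrophages, which are macrophages grown in culture from marrow precursors, of male C57BL/6J mice. They carried either a control siRNA or siRNAs directed at the RNY terminal loop, together called the Y RNA siRNA here. RNY stands for the Y RNAs, small noncoding RNAs whose fragments are called s-RNYs. Each group held 4 samples, and the series design states 2 conditions on 4 mice, so the replicate numbers are used as mouse 1 to mouse 4. The labels used here state neither the ages of the mice nor the siRNA sequences, their dose or the hours between transfection and lysis. The series asks which genes respond to s-RNYs in macrophages. No probe named for a Y RNA was used here, so these data do not show how far the Y RNAs were reduced.

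Autophagy encloses cytoplasm, damaged organelles or microbes in a double membrane that then fuses with the lysosome. The ULK1 kinase complex starts the process, a class III phosphatidylinositol 3-kinase marks the membrane, and ubiquitin-like conjugation attaches the Atg8-family proteins LC3 and GABARAP to it. Macrophages use the same conjugation machinery on phagosomes that have taken up microbes or dying cells. Autophagy is controlled largely by protein activity, so transcript levels do not measure autophagic flux.

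Several autophagy genes are known targets of TFEB and related factors, which bind the E-box CACGTG, so the start sites were searched for these letters in RefSeq's GRCm38.p6 promoter table. Of the 34 genes, 28 had an entry, with 31 start sites in all. In the 250 bases before the start site, CACGTG was found at 3 of 31 start sites (9.68%), against 6.02% of 32851 start sites of all genes. It lay before start sites of Atg3, Atg5 and Atg7, all of the conjugation system. The Atg7 entry starts 27969 bases inside the gene and is not printed. The Atg3 window (chr16:45158579-45158828, plus strand) and the Atg5 window (chr10:44268089-44268338, plus strand) are shown 5′ to 3′ with the E-box in capitals, since their start sites lie at the annotated gene start (Atg3) or 17 bases inside the gene (Atg5).
Atg3: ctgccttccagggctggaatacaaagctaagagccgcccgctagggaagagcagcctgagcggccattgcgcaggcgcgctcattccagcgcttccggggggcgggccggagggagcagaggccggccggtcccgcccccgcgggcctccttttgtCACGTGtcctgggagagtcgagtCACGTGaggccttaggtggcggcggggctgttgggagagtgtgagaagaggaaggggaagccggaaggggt
Atg5: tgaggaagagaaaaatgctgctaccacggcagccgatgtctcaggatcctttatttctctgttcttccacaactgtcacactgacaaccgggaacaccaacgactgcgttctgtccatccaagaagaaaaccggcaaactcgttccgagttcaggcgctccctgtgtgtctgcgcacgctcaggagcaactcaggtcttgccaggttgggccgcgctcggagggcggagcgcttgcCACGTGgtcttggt
The E-box is the same on both strands. It starts at -94 and -71 before Atg3 and at -14 before Atg5, counted from the start site, which for Atg5 is just inside the annotated gene. A motif of the kind bound by NRF2, TGACNNNGC on either strand, was found at 2 of 31 start sites, those of Atg13 and Ulk2, against 10.2% of all.

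A level is the log2 processed signal of a probe after subtraction of that array's 75th percentile, so 0 stands for the percentile itself. The signal of a probe depends on its own sequence, and levels of different genes are therefore not compared with one another. Of the 33 genes, 31 lay above the 75th percentile on all 8 arrays, and Optn and Calcoco1 lay below it on all 8. The percentile is taken over all non-control spots, also those not above background, while each gene is its brightest kept probe. A high count is therefore partly built in, and it was not set beside the count over all genes. The 8 arrays correlated at 0.989 to 0.997, spots well above background made up 48.7% to 50.7% of each array, and 0 spots were saturated. Only the control of mouse 4 had an RNA integrity number below 10, namely 8. Of 8 macrophage markers, 8 were kept, with a summed linear level of 1369 to 1626 over the arrays. The lists of other cell types had 0 of 4 (mast cells and basophils) to 4 of 5 markers kept (fibroblasts and osteoclasts).

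**Figure D1:**
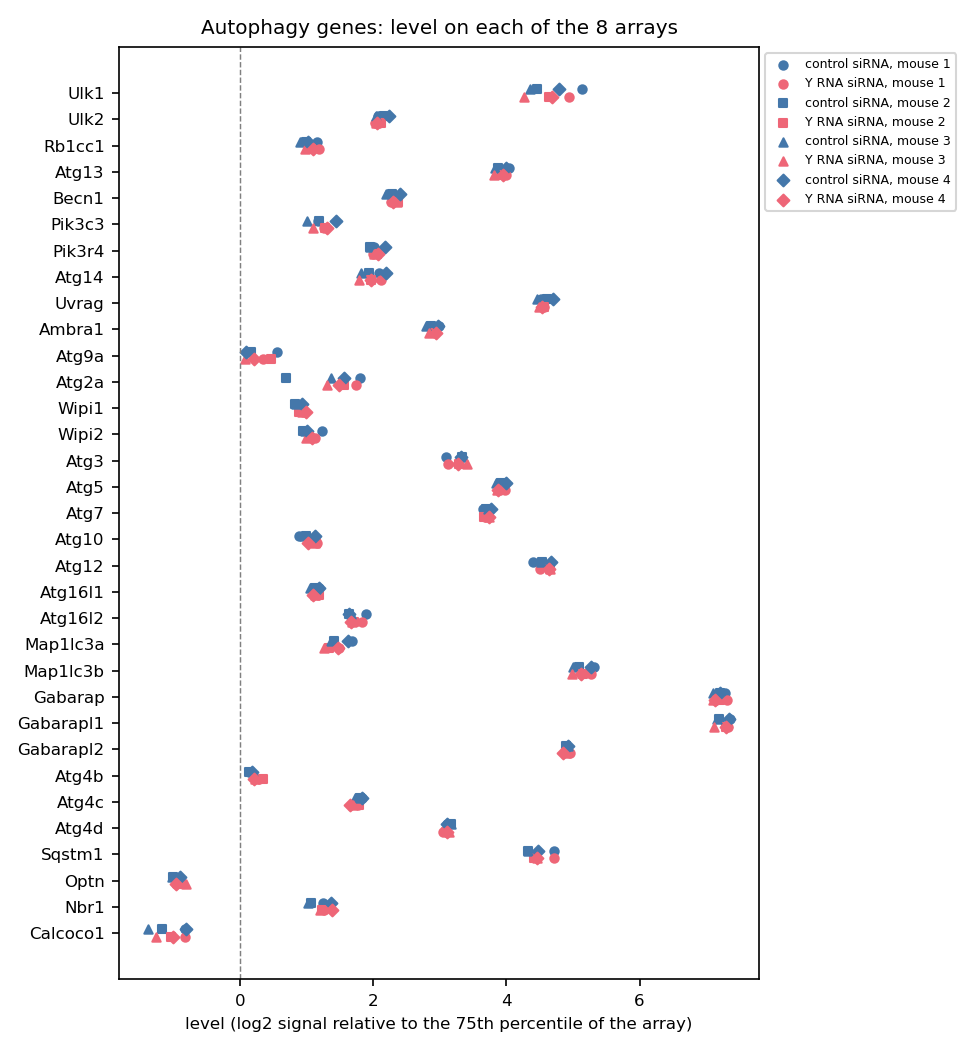
Level of 33 autophagy genes on each array, in log2 units above or below that array's 75th percentile (dashed line). Blue points are the control siRNA and red points the Y RNA siRNA, and the marker shape gives the mouse. For most genes the points of both colours overlap.

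No autophagy gene passed the test for a change with the Y RNA siRNA. The adjusted p from limma was under 0.05 for 0 of 33 and the unadjusted p for 0 of 33, where 0 of 19284 genes (0%) passed the first and 3.4% the second. Of the 33, 18 were higher (54.5%) and 15 lower with the Y RNA siRNA, beside 52.3% on the higher side among all genes. Their median difference was 0.0047 on the log2 scale, against 0.0046 over all genes. The median size of the difference was 0.04 for the autophagy genes and 0.06 for all genes. The mean differences ran from 0.911-fold (Map1lc3a) to 1.13-fold (Atg2a). The 95% interval lay within a 1.5-fold change in either direction for 32 of 33 genes (97%), against 84.7% of all genes. The exception was Atg2a, and all 33 intervals lay within 2-fold, as did 95.6% over all genes. These p-values and intervals measure the spread between arrays of a group, differences between mice included, since the fit has no term for mouse. In limma with a fixed term for each mouse, the unadjusted p was under 0.05 for 1 of 33 genes, against 9.27% of all genes. The adjusted p of that fit was under 0.05 for 0 of 33. All of these results rest on 4 mice.

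**Figure D2:**
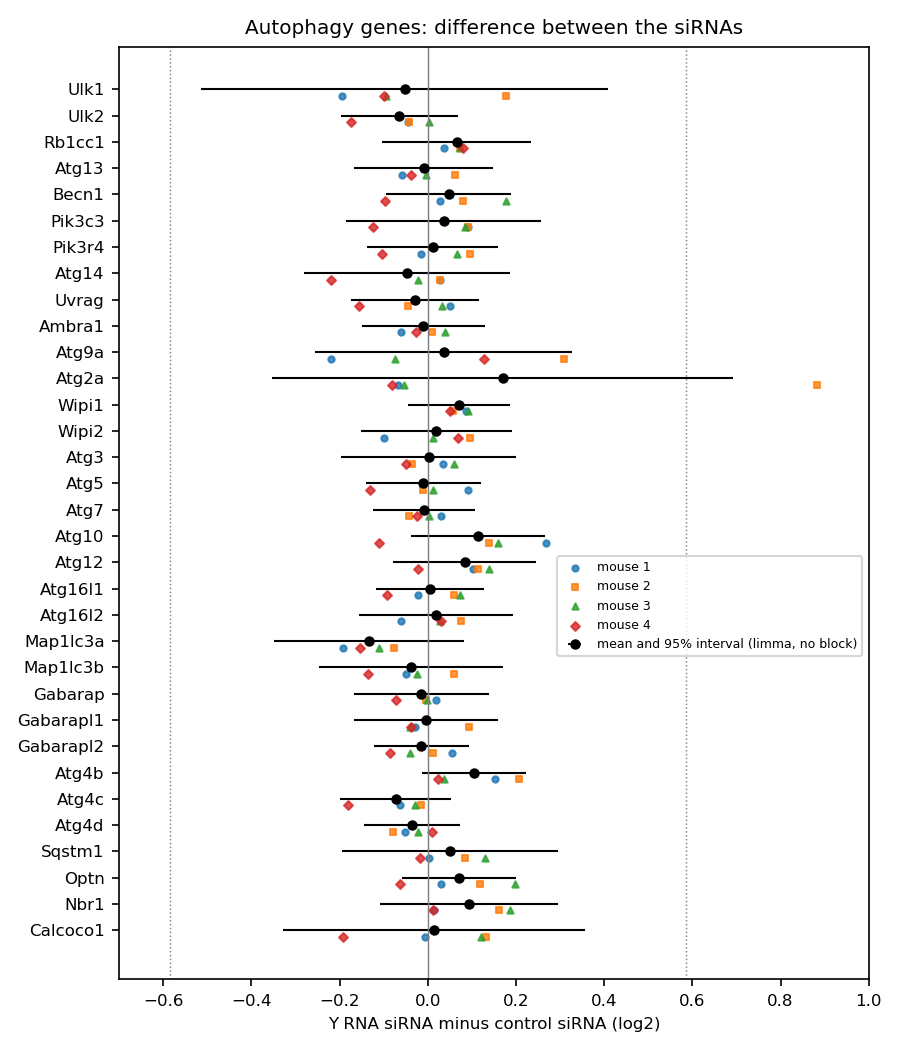
Difference between the Y RNA siRNA and the control siRNA in log2 units for 33 autophagy genes. Black points and bars are the mean and its 95% interval from limma without a block, small points are the differences within each mouse, and dotted lines mark 1.5-fold. All bars cross 0, and only that of Atg2a crosses a dotted line.

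The initiation genes came first in the pathway. Ulk1, the kinase that starts autophagy (probe on chromosome 5, 111213514 to 111213573, mm9), had levels of 5.14, 4.46, 4.35 and 4.78 in the controls of mice 1 to 4 and of 4.94, 4.64, 4.26 and 4.68 with the Y RNA siRNA. The groups overlapped, and in both of them mouse 1 was highest and mouse 3 lowest. The difference was -0.05 ± 0.20 (SE), with an interval from 0.700-fold to 1.33-fold and an adjusted p of 1.00 in limma. Rb1cc1, which encodes the scaffold FIP200, had levels of 1.15, 0.99, 0.90 and 1.02 in the controls and of 1.19, 1.06, 0.97 and 1.10 with the Y RNA siRNA. It was higher in 4 of 4 mice, by 0.07 ± 0.07 (SE), but the groups overlapped. Ulk2, a second kinase of this type, had a difference of -0.06 ± 0.06 (SE) on its brightest probe, and its other probe gave 0.08. Atg13, the regulatory partner of the kinase, had a difference of -0.01.

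The class III kinase genes differed little. Becn1, which encodes the scaffold Beclin 1, had levels of 2.23, 2.29, 2.18 and 2.40 in the controls and of 2.26, 2.37, 2.36 and 2.30 with the Y RNA siRNA. The difference was 0.05 ± 0.06 (SE), and the groups overlapped. The 6 genes of these complexes (Becn1, the catalytic subunit Pik3c3, the regulatory subunit Pik3r4, Atg14, Uvrag and Ambra1) split into 3 higher and 3 lower, with differences between -0.05 and 0.05. Pik3r4 has 10 identical spots on each array, and the median SD between those spots was 0.05, beside an SD of 0.11 between the control arrays.

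Among genes of membrane supply and phosphoinositide binding, Wipi1 and Atg2a stood at the upper end. Wipi1, which binds the lipid made by the class III kinase, had levels of 0.86, 0.83, 0.84 and 0.94 in the controls and of 0.94, 0.88, 0.94 and 0.99 with the Y RNA siRNA. It was higher in 4 of 4 mice, by 0.07 ± 0.05 (SE), with overlapping groups and an adjusted p of 1.00 in limma. Atg2a, a lipid transfer protein, had the largest mean difference, 0.17 ± 0.23 (SE), but its control levels were 1.80, 0.68, 1.36 and 1.57, against 1.74, 1.56, 1.31 and 1.49. The control of mouse 2 lay below all other arrays, and the difference was higher in only 1 of 4 mice, mouse 2 at 0.88. Wipi2 (0.02) and the scramblase gene Atg9a (0.04) had smaller differences.

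The conjugation genes, which include the ones with an E-box shown above, had differences of both signs. Atg7, the activating enzyme, had levels of 3.65, 3.70, 3.73 and 3.76 in the controls and of 3.67, 3.66, 3.73 and 3.74 with the Y RNA siRNA. The values were intermixed, and the difference was -0.0085 ± 0.05 (SE), an interval from 0.918-fold to 1.08-fold. Its second probe, with a mean signal of 817 against 7770, gave -0.28 and was lower in 4 of 4 mice. Atg5, which joins Atg12 to form the ligase for LC3, differed by -0.01 ± 0.06 (SE), and Atg3, the conjugating enzyme, by 0.0018 ± 0.09 (SE). The ligase subunit gene Atg16l1 differed by 0.0047 ± 0.05 (SE). Atg10, the conjugating enzyme for Atg12, had levels of 0.89, 0.99, 0.96 and 1.12 in the controls and of 1.15, 1.13, 1.12 and 1.01 with the Y RNA siRNA. It was higher in 3 of 4 mice, by 0.11 ± 0.07 (SE), and in mouse 4 it was lower. Atg12 itself was higher in 3 of 4 mice, by 0.08 ± 0.07 (SE). Its second probe, with a mean signal of 1853 against 14212, gave -0.02 and was higher in 2 of 4 mice. Neither Atg10 nor Atg12 passed the test.

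The Atg8-family genes encode the proteins that are attached to the membrane and recognised by cargo receptors. All 5 had means slightly below the controls, from -0.13 (Map1lc3a) to -0.0041 (Gabarapl1). With the array median in place of the 75th percentile, 3 of the 5 were higher and 2 lower, so their direction depends on the scaling. Map1lc3a, which encodes LC3A, had levels of 1.68, 1.41, 1.36 and 1.63 in the controls and of 1.49, 1.33, 1.25 and 1.47 with the Y RNA siRNA. It was lower in 4 of 4 mice although the groups overlapped, by 0.13 (log2 difference -0.13 ± 0.09, SE). The adjusted p was 1.00 in limma without a block. In limma with a fixed term for each mouse, its unadjusted p was 0.020, where 9.27% of all genes were under 0.05, and its adjusted p 0.451.

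Map1lc3b, which encodes LC3B, the usual marker of autophagosomes, had levels of 5.31, 5.10, 5.00 and 5.26 in the controls and of 5.26, 5.15, 4.98 and 5.13 with the Y RNA siRNA. The difference was -0.04 ± 0.09 (SE), an interval from 0.842-fold to 1.13-fold. Its probe (chromosome 8, 124121771 to 124121830, mm9) is also spotted 10 times, with a median SD of 0.10 between spots of an array. Gabarap had a difference of -0.01 ± 0.07 (SE), with levels from 7.10 to 7.29 in the controls and from 7.10 to 7.31 with the Y RNA siRNA. Gabarapl2 differed by -0.01.

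Of the Atg4 proteases, which trim the Atg8-family proteins before conjugation and later release them, Atg4b had the smallest unadjusted p of all 33 genes (0.0761). Its levels were 0.13, 0.14, 0.19 and 0.18 in the controls and 0.28, 0.34, 0.23 and 0.20 with the Y RNA siRNA. The groups did not overlap, as for 2.43% of all genes, and Atg4b was the only autophagy gene of which this held. The difference was 0.10 ± 0.05 (SE), 1.08-fold with an interval from 0.990-fold to 1.17-fold, and the adjusted p was 1.00 in limma. Atg4c was lower in 4 of 4 mice, by 0.07 (log2 difference -0.07 ± 0.05, SE). Its 2 probes overlap on chromosome 4 (98926364 to 98926423 and 98926380 to 98926439, mm9) and gave -0.07 and -0.08, although their mean signals were 2012 and 1010. Atg4d differed by -0.04.

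The cargo receptors bind cargo on one side and Atg8-family proteins on the other. All 4 had means above the controls, from 0.01 (Calcoco1) to 0.09 (Nbr1), but Calcoco1 was below 0 with normexp background correction and with the deposited value table. Sqstm1, which encodes p62 and whose protein is itself degraded by autophagy, had levels of 4.71, 4.33, 4.33 and 4.48 in the controls and of 4.71, 4.41, 4.46 and 4.46 with the Y RNA siRNA. The values overlapped, with a difference of 0.05 ± 0.11 (SE) and an interval from 0.873-fold to 1.23-fold. Nbr1 was higher in 4 of 4 mice, by 0.09 ± 0.09 (SE), and Optn in 3 of 4, by 0.07 ± 0.06 (SE). Neither passed the test.

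Over the 33 genes, 6 moved the same way in all 4 mice (18.2%), against 19.3% of all genes. Atg4b, Wipi1, Nbr1 and Rb1cc1 were the 4 on the higher side, where 10.4% of all genes lay. Map1lc3a and Atg4c were the 2 on the lower side, where 8.85% lay. These counts hold for the brightest probe of each gene. The other probes of Rb1cc1 and Wipi1 were higher in only 3 of 4 mice, and the other probe of Atg4c was higher in 1. The within-mouse differences were not alike between mice. The Y RNA siRNA array gave the higher level for 24 of 33 genes in mouse 2 and for only 8 in mouse 4, where 51.4% and 44.6% of all genes were higher. The median difference of the 33 genes was 0.0026, 0.07, 0.03 and -0.07 in mice 1 to 4. The control of mouse 4 is the sample with the RNA integrity number of 8, and for 25 of 33 genes its level was above that of the Y RNA siRNA array of the same mouse. The part of RNA quality in these differences was not tested. Without that array the median of the 33 genes was 0.02.

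For most autophagy genes the siRNA difference was smaller than the gap between the highest and the lowest mouse mean. Each mouse mean rests on fewer arrays than a group mean, and the gap is taken between the extremes. Noise alone therefore tends to make the gap the larger value. The comparison cannot show that mice differed more than the siRNA groups. The median gap between the highest and the lowest mouse mean was 0.19 for the 33 genes, against 0.25 for all genes, and the siRNA difference exceeded that gap for 3 of 33 genes, against 5.79% of all genes. In limma's F-test of the mouse terms, with siRNA group in the model, 0 of 33 genes had an adjusted p under 0.05, against 4.7% of all genes. At an unadjusted p under 0.05 there were 10 of 33 (30.3%), beside 29.7% of all genes, so the share is that of the array as a whole. This test has few degrees of freedom and found only part of the 2-fold shifts planted in simulated data, and none of them when the noise was as wide as the spread within groups, so genes it did not call are not shown to be equal between mice.

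Ulk1 was the gene nearest to the threshold between mice. Its mouse means were 5.04, 4.55, 4.31 and 4.73, a gap of 1.66-fold between mouse 1 and mouse 3, with an adjusted p of 0.0644 in limma. Ulk1 passed in 6 of 20 alternatives, among them normexp background correction (adjusted p 0.0217) and the deposited value table (0.0304), and its adjusted p over all alternatives ran up to 0.346, the value without both arrays of mouse 1. Sqstm1 (4.71, 4.37, 4.39 and 4.47, adjusted p 0.0877) and Map1lc3b (5.29, 5.12, 4.99 and 5.20, adjusted p 0.136) were also highest in mouse 1. Map1lc3a had mouse means of 1.58, 1.37, 1.31 and 1.55 (adjusted p 0.0942), and Rb1cc1 of 1.17, 1.02, 0.93 and 1.06 (0.127). Calcoco1, a receptor for parts of the endoplasmic reticulum, was at -0.83, -1.11, -1.32 and -0.91 (adjusted p 0.105), and Atg16l2, a relative of the ligase subunit Atg16l1, was at 1.86, 1.67, 1.67 and 1.65 (0.158). Atg3 ran the other way (adjusted p 0.115), with means of 3.31, 3.38 and 3.30 in mice 2 to 4 and lower levels of 3.09 and 3.12 on the arrays of mouse 1. None of these passed the test.

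**Figure D3:**
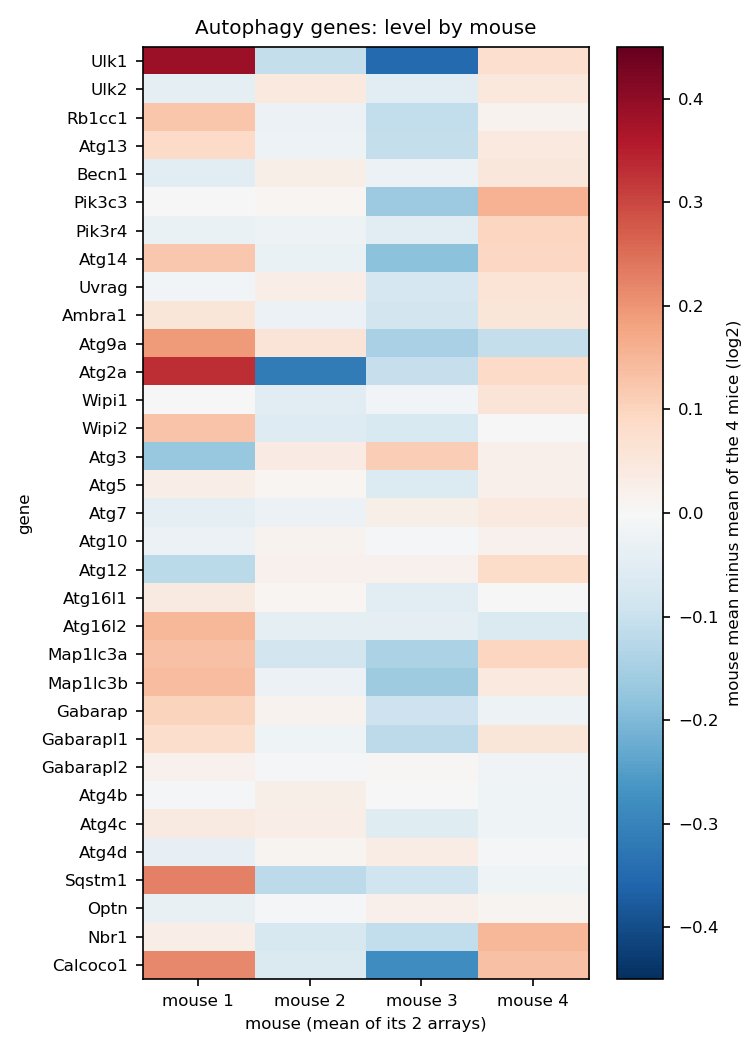
Mean level of each mouse (2 arrays) minus the mean of the 4 mice, in log2 units, for 33 autophagy genes, with red above and blue below that mean. Mouse 1 is highest for 19 genes, and the widest gap is that of Ulk1 between mouse 1 and mouse 3.

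Mouse 1 was the highest of the 4 mice for 19 of 33 genes (57.6%), against 36.3% of all genes, and for 5 of 5 Atg8-family genes. For 15 of 33 genes (45.5%) mouse 1 was highest and mouse 3 lowest, against 20% of all genes. These counts describe the list and were not tested. Both arrays of mouse 1 had the lowest 75th percentile of the log2 processed signal, 9.04 each, against 9.19 to 9.34 on the other arrays. The summed linear level of the 4 osteoclast markers kept of 5 (Ctsk, Oscar, Dcstamp and Ocstamp) was 7.44 and 5.84 on the arrays of mouse 1 and ran from 29.7 to 56.7 on the others, and Calcr was not well above background on any array. This sum is nearly all Ctsk, a protease gene with a mean level of 2.62 in mouse 1 and of 5.09 to 5.63 in the other mice, while Oscar (-2.37) and Ocstamp (-3.41) were highest in mouse 1. Summed levels of some other marker lists also set mouse 1 apart. Its summed levels were 0.782 and 1.06 for the 4 fibroblast markers kept, against 1.74 to 2.90 on the other arrays, and 3.74 and 4.35 for the 4 neutrophil markers kept, against 4.62 to 5.27. For the 8 macrophage markers they were 1626 and 1625, against 1369 to 1545. Single markers did not all follow these sums. Elane made up most of the neutrophil sum, and S100a8, Elane and Mpo were lowest in mouse 1, but Camp in mouse 3. Adgre1, Csf1r, Itgam, Fcgr1, Lyz2 and Cd14 were highest in mouse 1, but Cd68 in mouse 2 and Mertk in mouse 4. The lymphocyte sums did not set mouse 1 apart, at 6.71 and 5.97 against 4.89 to 6.28 on the other arrays. The part of signal level or of these cell type markers in the mouse differences was not tested. The arrays of mice 1 and 2 were in row 1 of the slide and those of mice 3 and 4 in row 2, so a row effect cannot be told apart from a difference between these pairs of mice. Each mouse also had its own neighbouring positions on the slide, so position cannot be told apart from mouse. The controls lay in columns 2 and 4, and the Y RNA siRNA arrays in columns 1 and 3. An effect of odd against even columns therefore cannot be told apart from the siRNA difference.

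Probes of 1 gene did not always give like differences. The 34 genes have 48 probes, and 12 of the genes have several. The bright probes of Gabarap gave -0.01 and -0.0053, while its dimmest probe, with a mean signal of 234 against 87113, gave 0.21. For Wipi1 the probes gave 0.07, 0.18 and 0.28 in order of falling signal, and for Sqstm1 they gave 0.05 and -0.13.

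**Figure D4:**
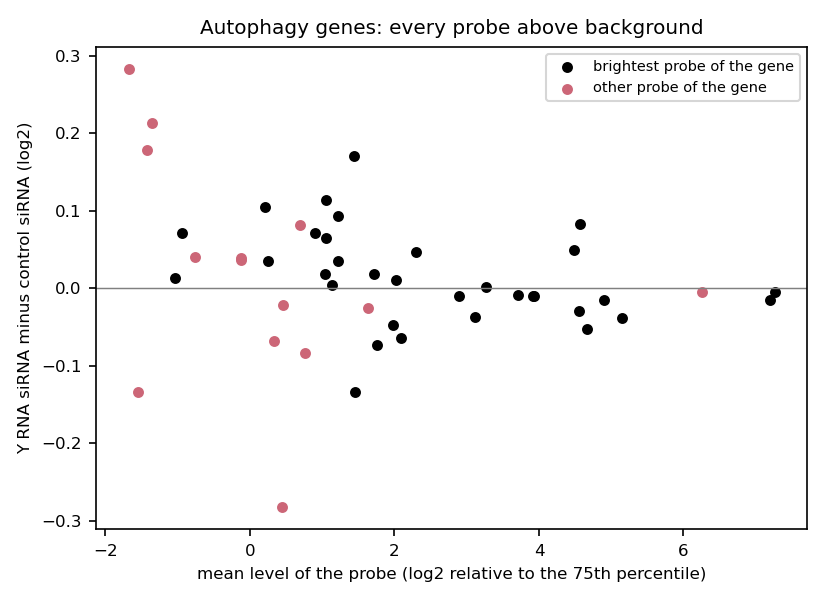
Difference between the siRNAs in log2 units for every probe of the autophagy genes above background, against the mean level of the probe (log2, with the 75th percentile at 0). Black points are the brightest probe of a gene and red points its other probes. Differences past 0.2 in size, as for Gabarap (0.21) and Atg7 (-0.28), occur only among the other probes.

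Other genes of the pathway gave the same picture, with 0 genes past the threshold in each of 6 lists. Since 0 of all 19284 genes passed, this count is not particular to the lists. Of all genes, 52.3% were higher. Among 14 other core genes tested, 7 were higher (median -0.0021), with the endosomal tether gene Epg5 at 0.08 ± 0.08 and Wac at -0.06 ± 0.06 (SE). Averaging all probes of Wac gave -0.0060. Among 16 other cargo receptors and mitophagy genes 7 were higher (median -0.0014). Tollip, an adaptor of endosomal sorting, was at -0.14 ± 0.07 and Retreg1, a receptor for the endoplasmic reticulum, at 0.17 ± 0.10 (SE). With the mean of all probes Tollip was at -0.046. Among 13 fusion genes 6 were higher (median -0.02), with the SNARE gene Snap29 at -0.14 ± 0.08 (-0.067 with its probes averaged) and Vps16 at 0.05 ± 0.05 (SE).

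The medians of the upstream lists were also near 0, over genes that went both ways, as all genes did (52.3% higher). Of 12 transcriptional regulators 5 were higher (median -0.03). Tfeb, the factor that binds the E-box, was at -0.14 ± 0.08 (SE) and lower in 4 of 4 mice, and Foxo3 was at 0.13 ± 0.07 (SE), or at -0.15 as the mean of its probes. Of 28 mTORC1 and AMPK genes 16 were higher (median 0.01). Sesn3, a stress-induced inhibitor of mTORC1, was at 0.34 ± 0.17 (SE) and higher in 4 of 4 mice, but at 0.18 with normexp background correction, 0.19 with the deposited value table and 0.21 without the Y RNA siRNA array of mouse 1. The AMPK subunit gene Prkag2 was at -0.15 ± 0.07 (SE). Of 7 NADPH oxidase genes, which act in LC3-associated phagocytosis, 1 was higher (median -0.03), namely Rac2 at 0.04 ± 0.05, while Ncf1 was at -0.08 ± 0.09 (SE). All 12 of these genes had an adjusted p of 1.00 in limma. In the F-test between mice, 1 regulator (Trp53inp1, adjusted p 0.0450) of 12 and 1 mTORC1 or AMPK gene (Prkaa2, 0.0423) of 28 passed, where 4.7% of all genes did. Both were looked up after their values were seen.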

How the data were processed

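RNA from 8 cultures (0.2 µg each) was hybridised to 1-colour Agilent arrays, per the labels. The scanner files deposited hold intensity values from Feature Extraction 10.7.3.1 (protocol GE1_107_Sep09, design 028005, probe positions on mm9), per the file headers. The processed intensity is background-subtracted and spatially detrended, not normalized between arrays. A value table of log2 values that the authors deposited, with method and centring unstated, served as an alternative only. Its column medians were 6.26 to 6.27. Flags of other kinds (spots well above background, outliers), per the file headers, set the filters.

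Control spots (3671 of 62976) and outlier spots were left out. Log2 processed signal minus the 75th percentile of the array was averaged per probe. Of 55681 probes, the 26818 that were well above background on 4 or more of the 8 arrays were kept, with the brightest probe for each gene. Names of 26762 probes were updated through RefSeq (GRCm38.p6). The siRNAs were compared in R 4.3.3 by limma 3.58.1, with lmFit, eBayes, two-sided p-values, Benjamini-Hochberg adjustment over 19284 genes and a threshold of 0.05, and intervals come from that fit. The number of arrays limits the precision. The fits were checked on simulated data. There the mouse F-test was correct but had little power, and it recovered none of the planted shifts when the noise was as wide as the spread within groups.

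Deviations of the 2 arrays of a mouse from their group means had correlations of 0.618 (mouse 1), 0.155 (mouse 2), 0.580 (mouse 3) and 0.286 (mouse 4). With the series design, the numbers were therefore taken to pair the samples. In mouse 2 the match was weak, and its control correlated more highly with the Y RNA siRNA array of another mouse. Arrays of the same number were also neighbours on the slide, so these correlations cannot tell mouse from position. The genes named are the 10 members with the smallest p between the siRNAs, the 8 with the smallest p between mice, Ulk1, Becn1, Atg5, Atg7, Map1lc3b, Gabarap and Sqstm1, and 2 genes of each other list. Further members are given to account for all. Members, lists and rules were chosen with earlier results of these data known. Alternatives changed the background correction, scaling, filter, probe choice, weights, blocks and the arrays included.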

Additional observations from a re-analysis of the deposited data

Results flagged for a closer look

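In 5 of 66 sets of 4 arrays, 1 array lay far from the other 3 by Dixon's criterion, which chance gives for about 1 in 20 sets. All 5 flagged values come from the 2 arrays of mouse 1, and genes on the same array are not independent. In the controls, mouse 1 had an Atg9a level of 0.56, against 0.09 to 0.16 in the others, an Atg3 level of 3.09, against 3.32 to 3.35, and an Atg16l2 level of 1.89, against 1.64 to 1.66. With the Y RNA siRNA, mouse 1 had an Atg12 level of 4.50, against 4.64 to 4.66, and a Sqstm1 level of 4.71, against 4.41 to 4.46.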

How the results depend on the processing

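The number of autophagy genes called between the siRNAs was 0 in all 23 alternatives, and over all genes it was 0 except for 11 with the mouse as a random replicate block. With a fixed replicate block it was 0 over all genes (smallest adjusted p 0.202), and pairing changed no call of an autophagy gene. The median difference of the 33 genes ran from -0.02 to 0.04. Between mice, the main count of 906 genes became 3313 with normexp, 1861 with the deposited table, 1462 with array weights and 173 with no filter, and 2 to 1224 when arrays or mice were left out. Without both arrays of a mouse it was 2 (mouse 1), 1224 (mouse 2), 164 (mouse 3) and 336 (mouse 4). Without the control of mice 1 to 4 in turn it was 92, 462, 116 and 165, and without the Y RNA siRNA array 81, 545, 104 and 245. Autophagy genes called between mice were 2 with normexp (Ulk1 and Calcoco1), 1 each (Ulk1) with the deposited table, array weights or a filter on all 8 arrays, and 0 to 2 when arrays or mice were left out. The 2 were Ulk1 and Atg2a, without the Y RNA siRNA array of mouse 2. Mouse 2 was then represented only by its control array, whose Atg2a level of 0.68 lay below all other arrays.

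Of 20 autophagy genes named by the rule, 10 kept the sign of their siRNA difference in every alternative and 10 did not. With normexp Calcoco1 was at -0.0013 and Atg16l2 at -0.0040. With quantile values Atg3 was at -0.0070. With median centring Atg5 was at 0.019, Atg7 at 0.021 and Gabarap at 0.015. With the deposited table Calcoco1 was at -0.017, Atg3 at -0.0023 and Atg16l2 at -0.0042. With the mean of all probes Ulk2 was at 0.0086, Sqstm1 at -0.042, Atg16l2 at -0.025 and Gabarap at 0.065. Foxo3, a regulator from another list and not one of the 20, was at -0.15 in that setting. With array weights Ulk1 was at 0.067, Atg3 at -0.023 and Map1lc3b at 0.0072. Leaving out arrays or mice gave -0.16 to 0.099 for Ulk1, -0.017 to 0.13 for Sqstm1, -0.097 to 0.092 for Calcoco1, -0.060 to 0.053 for Atg3 and -0.093 to 0.013 for Map1lc3b. It gave -0.018 to 0.081 for Atg16l2, -0.044 to 0.030 for Atg5, -0.030 to 0.0095 for Atg7 and -0.054 to 0.014 for Gabarap. The cause of these turns was not tested.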
